A study of Mus musculus with 6 samples.

Results

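The transcription factor p53 and the genes that regulate it or answer to it were followed in mouse embryonic stem cells (mESC) after acute loss of the TET enzymes. The 10 genes were chosen by symbol: *Trp53*, which encodes p53, its inhibitors *Mdm2* and *Mdm4*, and the 7 targets *Cdkn1a*, *Ccng1*, *Sesn1*, *Zmat3*, *Phlda3*, *Bbc3* and *Trp53inp1*. All 10 were found among the 22380 gene identifiers in the files, and all 10 were among the 10524 genes that passed the filter of a mean normalized count of at least 10 and were tested. The study compared RNA from 3 control lines (Ctrl) and 3 *Tet* inducible knockout lines (Tet iTKO), each line grown from a different embryo. Lines of both groups carried a CreERT2 recombinase driven by the ubiquitin C promoter and the Rosa26-LSL-H2B-EGFP reporter, and only the Tet iTKO lines carried floxed *Tet1*, *Tet2* and *Tet3*. Both groups received 1 µM 4-hydroxytamoxifen for 2.5 days, were kept for 4 more days without it and were harvested at day 6.5, so the controls had also been exposed to the drug and to active Cre. The cells were grown in 2i medium with LIF on mitomycin C-treated feeder fibroblasts and were sorted as live, EGFP-positive, CD326-positive and CD90.2-negative cells.

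p53 is held at a low level in resting cells by the ubiquitin ligase MDM2 and its partner MDM4, and it is stabilized when DNA is damaged. It then switches on genes that stop the cell cycle, repair damage or start apoptosis, and it also switches on *Mdm2*, which closes a negative feedback loop. Because much of this control acts on the protein, the level of the *Trp53* transcript is not a measure of p53 activity. Embryonic stem cells are known to hold abundant p53.

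The summed normalized count of a library lay between 3964824 and 4219665. These sums follow scaling by the authors, so the sequencing depth of each library is unknown. Replicate libraries of a group correlated at r = 0.972 to 0.979 across the tested genes on the log2 scale. The 6 mESC markers summed to 10152 to 10617 in Ctrl and 9366 to 9757 in Tet iTKO. By limma *Pou5f1* (5208 to 5804 in Ctrl, 4318 to 4775 in Tet iTKO), *Nanog* and *Zfp42* were lower and *Esrrb* and *Epcam* higher in Tet iTKO, and *Sox2*, at 1086 to 1224 over all lines, did not pass. *Nanog*, *Zfp42* and *Esrrb* lost their calls with the GC and length correction described next. *Tet1* was listed at 682, 696 and 716 in Ctrl and 753, 787 and 895 in Tet iTKO, *Tet2* at 170 to 249 and 211 to 268, and *Tet3* at 13 to 28 and 3 to 10. The deletion removes exons for the catalytic domain of *Tet1* and *Tet2* and a different exon of *Tet3*, and a count over a whole gene sums deleted and remaining exons, so these values do not check the genotype. Over all tested genes the fold change rose with transcript length and with GC content (Spearman's rho = 0.29 and 0.26 across 10457 genes, which are not independent replicates), and a fit corrected for both is therefore given beside the genes named here whose call it changed.

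Sequence near the start sites of the members was examined in RefSeq windows of 300 bases, with 250 bases before and 50 after an annotated start (build GRCm38.p6, which is later than the mm9 build named in the processing notes). The p53 consensus is a 10-base repeat that occurs as a pair in a 20-base element. Of the members, 8 had at least 1 window, 13 windows in all, and *Zmat3* and *Trp53inp1* had none. A 20-base element with at most 3 mismatches, with the C and G at the core of each repeat kept, was present in 5 of these 13 windows, against 1.38% of all 32851 windows. A perfect 10-base repeat was present in 5 of 13, against 8.36% of all windows, and most of these repeats lie inside the 20-base elements. Only the strand of the gene was read, which covers both strands because the consensus is its own reverse complement. The elements are shown in capitals with 20 flanking bases on each side, 5′ to 3′ on the strand of the gene. They are shown because p53 is known to bind its targets through elements of this kind. Binding at the stretches printed here was not tested.

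Cdkn1a: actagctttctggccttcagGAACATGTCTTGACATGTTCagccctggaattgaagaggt
Ccng1: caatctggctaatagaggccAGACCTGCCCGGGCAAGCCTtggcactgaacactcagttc
Bbc3: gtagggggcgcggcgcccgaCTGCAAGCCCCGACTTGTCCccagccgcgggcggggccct
Trp53: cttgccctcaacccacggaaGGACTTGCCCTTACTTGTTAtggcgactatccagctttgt
Sesn1: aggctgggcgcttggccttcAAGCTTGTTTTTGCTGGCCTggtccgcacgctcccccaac

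The *Cdkn1a* element had 1 mismatch and lay 51 to 32 bases before the more upstream of 2 annotated starts (chr17:29090908-29090967, plus strand). The *Ccng1* element also had 1 mismatch, 195 to 176 bases before the start (chr11:40755442-40755501, minus strand), and only 22 of all windows held an element this close to the consensus. *Bbc3* (chr7:16309466-16309525, plus), *Trp53* (chr11:69580264-69580323, plus) and *Sesn1* (chr10:41887246-41887305, plus) each had 3 mismatches. The *Mdm2* window held only a single 10-base repeat, shown in capitals, 186 to 177 bases before its start (chr10:117710915-117710964, minus). The windows of *Mdm4* and *Phlda3* held no complete repeat. The *Phlda3* window ended within letters that matched the start of a repeat, and the bases beyond it were not read. Elements outside the windows, or with other bases between the repeats, were not searched for in any member.

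Mdm2: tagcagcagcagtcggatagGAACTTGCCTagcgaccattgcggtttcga

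A match is a description of letters and not evidence of binding in these cells. Of the 5 members with a 20-base element, 3 were higher, 1 was lower and 1 did not pass the test in the comparison below. Of all tested genes, 16.4% were higher and 18.4% lower. With the GC and length correction the 3 higher ones, *Trp53*, *Cdkn1a* and *Bbc3*, lost their calls, and *Ccng1* was still called lower. The windows ranged from 2 CpG dinucleotides (*Cdkn1a*, upstream start) to 39 (a *Bbc3* start), against a median of 7 over all windows.

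The comparison of Tet iTKO with Ctrl asked how the p53 pathway stood after loss of the TET enzymes. It was mixed in direction: *Trp53*, *Cdkn1a*, *Zmat3* and *Bbc3* were higher in Tet iTKO, *Mdm2* and *Ccng1* were lower, and the other 4 members did not pass the test. The changes were small, with means in Tet iTKO between 76.1% and 163.4% of Ctrl. By limma 4 of 10 members were called higher and 2 of 10 lower at an adjusted p under 0.05, against a background of 16.4% and 18.4% of all tested genes. With the GC and length correction 1 member was higher and 2 were lower, beside 1018 and 2077 of the 10524 genes. None was past an adjusted p of 0.05 together with a log2 fold change of 1, a pair of thresholds that 6.25% of all genes passed. No member passed both thresholds in any alternative fit. The median log2 fold change of the members was -0.07, against 0.01 over all tested genes. In bulk RNA, fewer cells that express a gene and less RNA per cell cannot be told apart.

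**Figure D1:**
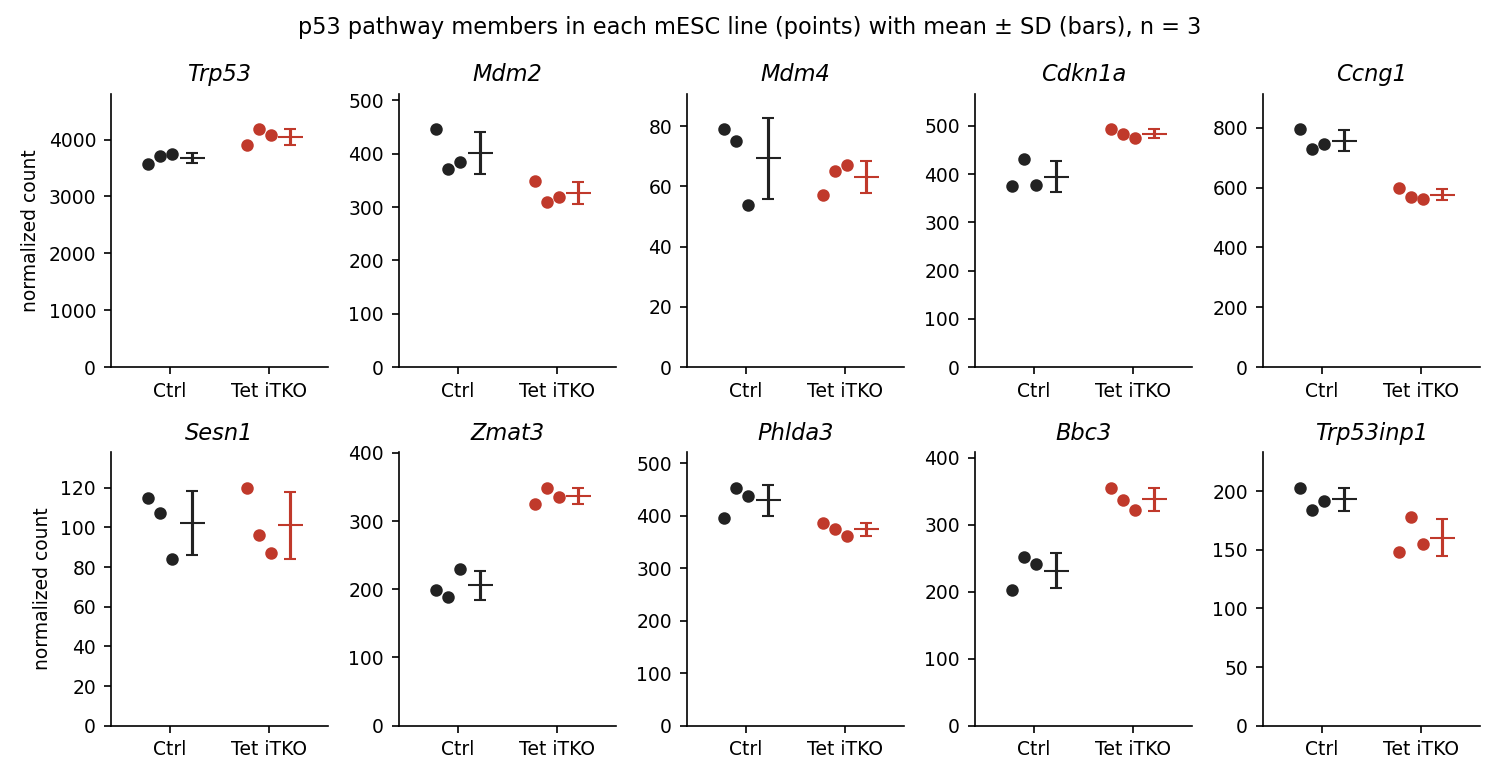
Normalized counts (y axis, linear from 0) of the 10 members in each of the 3 Ctrl (black) and 3 Tet iTKO (red) lines, with the mean ± SD of each group beside the points. The lines of the groups did not overlap for 8 of 10 members and overlapped for *Mdm4* and *Sesn1*.

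The lines of the 2 groups did not overlap for 8 members, 4 higher and 4 lower, beside 44.1% of all tested genes. The spread within Ctrl differed among members, from a coefficient of variation of 2.54% for *Trp53* to 19.4% for *Mdm4*, the member with the lowest counts. *Trp53*, with the smallest difference that passed the test, was also the member with the highest counts.

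*Trp53* was measured at 3567, 3718 and 3738 in Ctrl and at 3898, 4182 and 4072 in Tet iTKO. Every Tet iTKO line was above every Ctrl line, but the difference was slight: the mean was 3674 ± 93.5 in Ctrl and 4051 ± 143 in Tet iTKO (SD, n = 3 in each group). The log2 fold change was 0.14 ± 0.05 (SE), with a 95% interval of 0.05 to 0.23 and a limma adjusted p = 0.016. After correction for GC content and length it was -0.03 (limma adjusted p = 0.61), so neither the call nor the direction held. The call was also lost without Ctrl line 1 (limma adjusted p = 0.055), Tet iTKO line 2 (0.094) or Tet iTKO line 3 (0.05, just above the threshold), and in the fit without an intensity trend (0.24). The related family members were low: *Trp63* was listed at 0 in all 6 lines, and *Trp73* at 23 to 38 in Ctrl and 19 to 21 in Tet iTKO, with a log2 fold change of -0.60 ± 0.37 (SE; limma adjusted p = 0.22). *Trp73* was at -1.09 and passed with the GC and length correction (limma adjusted p = 0.024).

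*Mdm2*, the ubiquitin ligase that marks p53 for degradation and is itself a p53 target, was listed at 446, 372 and 385 in Ctrl. In Tet iTKO it was listed at 349, 310 and 319, so all 3 lines lay under the Ctrl lines. The mean fell from 401 ± 39.5 to 326 ± 20.4 (SD, n = 3), to 81.3% of Ctrl. The log2 fold change was -0.30 ± 0.10 (SE), with a 95% interval of -0.50 to -0.09 and a limma adjusted p = 0.02. Correction for GC content and length left -0.24 and ended the call (limma adjusted p = 0.059), as did leaving out Ctrl line 1 (-0.22, limma adjusted p = 0.13), Tet iTKO line 2 (0.083) or Tet iTKO line 3 (0.062). With replicate number added to the corrected fit, *Mdm2* was at -0.24 and passed (limma adjusted p = 0.049). The call was also lost with quantile normalization (-0.24, limma adjusted p = 0.064) and without an intensity trend (limma adjusted p = 0.098).

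*Mdm4* encodes a relative of MDM2 that binds and restrains p53. It was listed at 79, 75 and 54 in Ctrl and 57, 65 and 67 in Tet iTKO, and the groups overlapped. Its log2 fold change was -0.12 with a 95% interval of -0.59 to 0.35 (limma adjusted p = 0.72), an interval wide enough to hold a change as large as that of *Mdm2*. The log2 ratio of *Mdm2* to *Mdm4* was 2.48, 2.30 and 2.81 in Ctrl and 2.59, 2.24 and 2.23 in Tet iTKO. The groups overlapped, and the difference of -0.17 gave p = 0.5 in a two-sided exact permutation test, which with 3 lines against 3 cannot go below 0.1. The difference was 0.00 with the GC and length correction.

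*Cdkn1a* encodes p21, the inhibitor of cyclin-dependent kinases through which p53 arrests the cell cycle. It was listed at 375, 432 and 378 in Ctrl and at 493, 484 and 474 in Tet iTKO, with no overlap between groups. The mean rose from 395 ± 32.1 to 483.7 ± 9.5 (SD, n = 3), to 122.4% of Ctrl. The log2 fold change was 0.29 ± 0.09 (SE; limma adjusted p = 0.01). The call held without each line in turn, with limma adjusted p from 0.0062 to 0.042. It was lost after correction for GC content and length, where the log2 fold change was 0.20 (limma adjusted p = 0.085), and in the fit without an intensity trend (limma adjusted p = 0.067).

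*Bbc3* encodes PUMA, a BH3-only protein that starts mitochondrial apoptosis. It was listed at 202, 251 and 241 in Ctrl and at 355, 337 and 321 in Tet iTKO. The Tet iTKO lines stood well clear of the Ctrl lines, with means of 231.3 ± 25.9 and 337.7 ± 17 (SD, n = 3). This was a log2 fold change of 0.55 ± 0.11 (SE; limma adjusted p = 0.00018). *Bbc3* had the highest GC content among the members, 65.2% of its longest transcript, and after correction for GC content and length its log2 fold change was 0.18 (limma adjusted p = 0.23). The rise of *Bbc3* thus depended on whether that correction was made.

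*Zmat3*, a zinc finger protein that binds RNA and acts in splicing downstream of p53, showed the largest change among the 10 members. It was listed at 199, 189 and 230 in Ctrl and at 325, 349 and 336 in Tet iTKO, so the lowest Tet iTKO line exceeded the highest Ctrl line by a wide margin. The mean rose from 206 ± 21.4 to 336.7 ± 12 (SD, n = 3), to 163.4% of Ctrl. The log2 fold change was 0.71 ± 0.11 (SE), with a 95% interval of 0.48 to 0.94 and a limma adjusted p = 4.9e-06. *Zmat3* was the only member called higher in every alternative fit: its log2 fold change ran from 0.45 with the GC and length correction (limma adjusted p = 0.0021) to 0.79 without Ctrl line 3.

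*Ccng1*, whose product cyclin G1 takes part in feedback on p53 through MDM2, moved in the other direction. It was listed at 795, 728 and 745 in Ctrl and at 597, 567 and 563 in Tet iTKO, with no overlap. The mean fell from 756 ± 34.8 to 575.7 ± 18.6 (SD, n = 3), to 76.1% of Ctrl. Its log2 fold change was -0.39 ± 0.08 (SE; limma adjusted p = 9.8e-05). It was called lower in every alternative fit, with log2 fold changes from -0.42 to -0.23. *Ccng1* and *Cdkn1a*, the members with the elements closest to the p53 consensus among those printed above, therefore moved in opposite directions.

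*Phlda3*, an inhibitor of AKT signalling, was listed at 396, 453 and 437 in Ctrl and 385, 375 and 361 in Tet iTKO. Its groups did not overlap, but its log2 fold change of -0.20 ± 0.09 (SE) did not pass the test (limma adjusted p = 0.10). With the GC and length correction it was -0.37 and passed (limma adjusted p = 0.0021). *Trp53inp1*, a stress-induced protein linked to autophagy and apoptosis, was listed at 203, 184 and 192 in Ctrl and 148, 178 and 155 in Tet iTKO. These groups did not overlap either, and its log2 fold change of -0.27 ± 0.14 (SE) did not pass (limma adjusted p = 0.12). *Sesn1*, a sestrin that restrains mTORC1 signalling, was listed at 115, 107 and 84 in Ctrl and 120, 96 and 87 in Tet iTKO. Its log2 fold change was -0.01 with a 95% interval of -0.40 to 0.37 (limma adjusted p = 0.96).

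**Figure D2:**
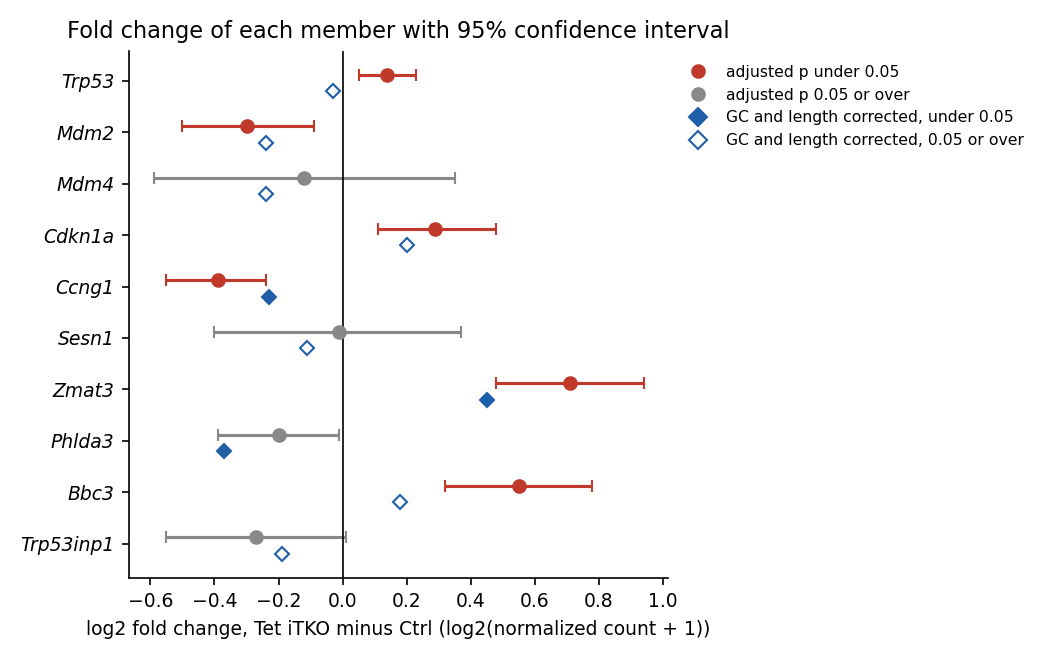
Log2 fold change of each member, Tet iTKO minus Ctrl (x axis, on the log2(normalized count + 1) scale), with its 95% confidence interval (circles), and the value after correction for GC content and length (diamonds). *Zmat3* at 0.71 and *Ccng1* at -0.39 kept their calls after the correction, *Bbc3* moved from 0.55 to 0.18 and *Trp53* from 0.14 to -0.03.

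Markers of the other cells the cultures could hold were read beside these values. Of 8 feeder fibroblast markers 4 were tested, and *Col1a1* (150 to 181 in Ctrl, 281 to 349 in Tet iTKO), *Col1a2* and *Col3a1* rose. Corrected for GC content and length, *Col1a1* went from a log2 fold change of 0.89 to 0.27 and lost its call (limma adjusted p = 0.11), *Col1a2* went from 1.17 to 0.73 and *Col3a1* from 1.36 to 1.04. *Thy1*, which encodes the CD90 antigen used to exclude feeders, was at 30 to 46 in Ctrl and 23 to 47 in Tet iTKO (limma adjusted p = 0.69), *Dcn*, *Lum* and *Pdgfrb* did not exceed 15 in any line and *Postn* did not exceed 3. The summed level of the 8 markers was 280 to 292 in Ctrl and 477 to 554 in Tet iTKO, and its part in the rises of *Cdkn1a*, *Zmat3* and *Bbc3* was not tested. The 4 trophoblast markers summed to 1 to 10 in Ctrl and 11 to 15 in Tet iTKO, with *Elf5* at 0 or 1 in every line. The 4 primitive endoderm markers summed to 4 to 15 and 16 to 29, and *Gata4*, the 1 of them tested, was higher (limma adjusted p = 0.03), but not without Ctrl line 1 (0.13), Tet iTKO line 1 (0.11) or Tet iTKO line 3 (0.16), nor with the GC and length correction (limma adjusted p = 0.11).

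Levels of different genes can be set side by side only per length, here as normalized count per kilobase of the longest annotated transcript. On that scale *Trp53* stood highest in Ctrl at 1122 ± 28.5 (SD, n = 3), followed by *Phlda3* at 298.7 ± 20.5, *Ccng1* at 215.3 ± 9.92, *Cdkn1a* at 189.9 ± 15.4, *Bbc3* at 127.5 ± 14.3 and *Mdm2* at 127.5 ± 12.6. The low members were *Trp53inp1* at 35.53 ± 1.76, *Sesn1* at 26.78 ± 4.23, *Zmat3* at 26.42 ± 2.74 and *Mdm4* at 9.758 ± 1.89. Neighbours in this order whose Ctrl lines overlapped were *Ccng1* and *Cdkn1a*, *Mdm2* and *Bbc3*, and *Sesn1* and *Zmat3*. In Tet iTKO the level per kilobase of *Cdkn1a* (232.5 ± 4.57) lay above that of *Ccng1* (163.9 ± 5.29), and that of *Zmat3* (43.18 ± 1.54) above that of *Trp53inp1* (29.52 ± 2.89), with no overlap between lines in either pair. No annotated gene that overlaps a member had an entry among the identifiers. The library kit does not keep strand, so for *Cdkn1a* reads from an antisense transcript that shares 273 exon bases cannot be told apart.

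The profile most like that of *Trp53* over the 6 lines, by the root mean square distance between centred log2 values among 7789 genes, was that of *Eif1*, at 0.021, followed by *Sart1* at 0.025 and *Srpr* at 0.026. For *Cdkn1a* the nearest were *Ammecr1l* at 0.022, *Ogdh* at 0.039 and *Sesn2* at 0.039. *Sesn2* is itself a p53 target, at 1031 to 1241 in Ctrl and 1262 to 1399 in Tet iTKO, a log2 fold change of 0.26 that turned to -0.18 with the GC and length correction. These distances describe 6 lines and were not tested.

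Other established p53 targets did not move together. Of 37 listed, 34 were tested, and 6 were higher and 7 lower in Tet iTKO (17.6% and 20.6%, near the 16.4% and 18.4% of all tested genes), with a median log2 fold change of 0.10 against 0.01 over all tested genes. *Fas*, *Dram1* and *Cd82* did not exceed 2 in any line and were not tested. Among targets that were called and had a mean of at least 50, the largest rises were those of *Pml*, which organizes nuclear bodies (0.58 ± 0.07, SE; limma adjusted p = 2e-08), *Pmaip1*, which encodes the BH3-only protein NOXA (0.54 ± 0.11; limma adjusted p = 0.00013), and *Sfn*, which encodes 14-3-3 sigma (0.37 ± 0.07; limma adjusted p = 0.00016). *Pmaip1* was listed at 246, 292 and 233 in Ctrl and at 402, 354 and 366 in Tet iTKO, with no overlap. Of those called and with a mean of at least 50, the largest falls were those of the pro-apoptotic *Siva1* (-0.66 ± 0.07; limma adjusted p = 3.7e-09), the metabolic regulator *Tigar* (-0.60 ± 0.10; limma adjusted p = 4e-06) and the ribosomal protein paralog *Rps27l* (-0.60 ± 0.05; limma adjusted p = 1.7e-12). *Siva1* was listed at 1015, 992 and 1023 in Ctrl and at 587, 649 and 682 in Tet iTKO. With the GC and length correction *Pml* was at 0.22 and still called, whereas *Rps27l* was at 0.04 (limma adjusted p = 0.55). Only unique alignments were kept, so reads of *Rps27l* that also match near-identical copies may have been lost.

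Sorted by role, the 10 tested apoptosis targets held both directions: 2 were higher (*Pmaip1* and *Pidd1*) and 5 were lower (*Siva1*, *Triap1*, *Aen*, *Ei24* and *Bax*), beside 16.4% and 18.4% of all tested genes. *Bax*, which encodes the effector that opens the mitochondrial outer membrane, was listed at 1675, 1704 and 1739 in Ctrl and at 1332, 1460 and 1491 in Tet iTKO, a log2 fold change of -0.26 ± 0.06 (SE; limma adjusted p = 0.00067). *Bbc3* and *Pmaip1*, which encode BH3-only proteins that act upstream of BAX, were higher by the same fit. The call of *Pidd1* was weak (0.35, limma adjusted p = 0.046): it was kept without Ctrl line 3 only, and its limma adjusted p ran from 0.051 without Tet iTKO line 2 to 0.41 without Ctrl line 1 when each other line was left out. *Triap1* was no longer called with the GC and length correction (-0.20; limma adjusted p = 0.18), and *Pidd1* was then at -0.05. Of 5 arrest targets only *Sfn* passed, the 4 repair targets had limma adjusted p of 0.054 (*Ddb2*) or more, and *Gadd45a*, a growth arrest gene, was at 149 to 176 in Ctrl and 185 to 209 in Tet iTKO (limma adjusted p = 0.14). *Gadd45a* passed as well with the GC and length correction, at 0.53 (limma adjusted p = 0.0025).

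**Figure D3:**
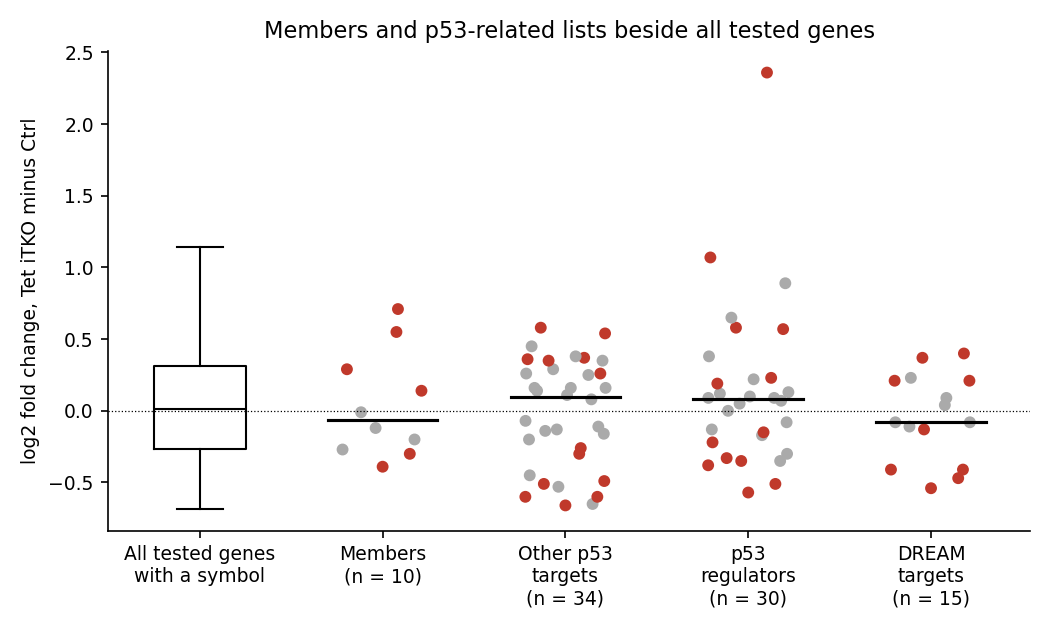
Log2 fold change, Tet iTKO minus Ctrl (y axis), of all tested genes with a symbol (box: quartiles and median, whiskers: 5th to 95th percentile) and of each tested gene of the 4 p53-related lists (points; red: adjusted p under 0.05, grey: not; black line: median of the list). The medians lay between -0.08 and 0.10, and each list held called genes in both directions.

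Regulators of p53 were likewise split. Of 32 listed, 31 were matched by symbol and 30 were tested, with a median log2 fold change of 0.08. Of these, 6 were higher and 7 lower (20% and 23.3%, near the 16.4% and 18.4% of all tested genes). With the GC and length correction 3 were higher and 5 lower, beside 1018 and 2077 of the 10524 genes. *Ppp1r13l*, which encodes the inhibitory cofactor iASPP, was listed at 37, 61 and 44 in Ctrl and at 104, 89 and 102 in Tet iTKO (1.07 ± 0.23, SE; limma adjusted p = 0.00037). The acetyltransferase gene *Ep300* (0.58 ± 0.15; limma adjusted p = 0.0025) and the ubiquitin ligase gene *Huwe1* (0.57 ± 0.09; limma adjusted p = 7.1e-06) were also higher. All 3 lost their calls with the GC and length correction, at 0.49, 0.05 and 0.10, and *Ep300* also without Tet iTKO line 2 (0.43; limma adjusted p = 0.055). *Setd7*, a lysine methyltransferase gene with low counts, was at 3 to 10 in Ctrl and 21 to 45 in Tet iTKO. Its log2 fold change was 2.36 ± 0.51 (SE; limma adjusted p = 0.00037), and 2.11 with the GC and length correction (limma adjusted p = 0.0015). Its Ctrl mean of 6.333 lay under the filter of 10, which the gene passed through its Tet iTKO lines.

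The lower regulators included all 3 tested genes whose products bind and inhibit MDM2. *Rpl11* was listed at 4452, 3721 and 4052 in Ctrl and at 2578, 2894 and 2730 in Tet iTKO (-0.57 ± 0.05, SE; limma adjusted p = 1.3e-10), and *Rpl5* (-0.33) and *Npm1* (-0.22) were lower by less. With the GC and length correction *Rpl11* was at -0.26 and still called, *Rpl5* was at -0.07 (limma adjusted p = 0.32) and *Npm1* turned to 0.12 (limma adjusted p = 0.015). Only unique alignments were kept, so reads of these genes that also match near-identical copies may have been lost. The fourth gene of this kind, *Cdkn2a*, which encodes ARF, was listed at 2, 0 and 4 in Ctrl and at 0 in every Tet iTKO line. *Rchy1*, a ubiquitin ligase gene, was lower (-0.51 ± 0.16; limma adjusted p = 0.01) but not with the correction (-0.35; limma adjusted p = 0.095) or without Tet iTKO line 3 (-0.40; limma adjusted p = 0.077). *Wrap53*, which neighbours *Trp53* on the opposite strand, was listed at 401, 360 and 356 in Ctrl and at 261, 324 and 277 in Tet iTKO, a log2 fold change of -0.38 ± 0.11 (SE; limma adjusted p = 0.0048) beside the slight rise of *Trp53*. Among the damage kinases *Chek1* was lower (-0.35; limma adjusted p = 0.036) and *Chek2* higher (0.23; limma adjusted p = 0.037). *Chek1* lost its call without Ctrl line 1 or 3 or Tet iTKO line 1 or 3 (limma adjusted p from 0.057 to 0.16) and with the GC and length correction (-0.22; limma adjusted p = 0.23), and *Chek2* without each line except Ctrl line 2 (0.065 to 0.11). *Atm* and *Atr* were at 37 to 65 in all lines and did not pass.

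The DREAM complex represses cell cycle genes when p21 is raised, and 15 genes it is known to repress were read beside *Cdkn1a*. All 15 were tested, with 4 higher and 5 lower (26.7% and 33.3%, against 16.4% and 18.4% of all tested genes) and a median log2 fold change of -0.08. With the GC and length correction 2 were higher and 6 lower, beside 1018 and 2077 of the 10524 genes. *Mybl2* was called higher at 0.21 (limma adjusted p = 0.00075) and, with the correction, lower at -0.14 (limma adjusted p = 0.013). *Cdk1*, the mitotic kinase gene, was listed at 1513, 1307 and 1286 in Ctrl and at 977, 925 and 906 in Tet iTKO (-0.54 ± 0.07, SE; limma adjusted p = 4.4e-08). *Ccnb2*, a B-type cyclin gene (-0.47 ± 0.07; limma adjusted p = 1.8e-06), and *Birc5*, which encodes survivin (-0.41 ± 0.06; limma adjusted p = 5.2e-07), were also lower. In the other direction stood *Kif23*, a cytokinesis kinesin gene (0.40 ± 0.09; limma adjusted p = 0.0009), *Foxm1*, a mitotic transcription factor gene (0.37 ± 0.10; limma adjusted p = 0.0057), and *Plk1*, a mitotic kinase gene (0.21 ± 0.06; limma adjusted p = 0.0073). *Foxm1* and *Plk1* were at 0.02 and 0.04 with the GC and length correction and lost their calls. *Foxm1* also lost its call without Tet iTKO line 3 (0.27; limma adjusted p = 0.081), and *Plk1* without Ctrl line 1 (0.16; limma adjusted p = 0.06) or Tet iTKO line 3 (0.18; limma adjusted p = 0.055). With the correction *Kif23*, *Cdk1*, *Ccnb2* and *Birc5* kept theirs.

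**Figure D4:**
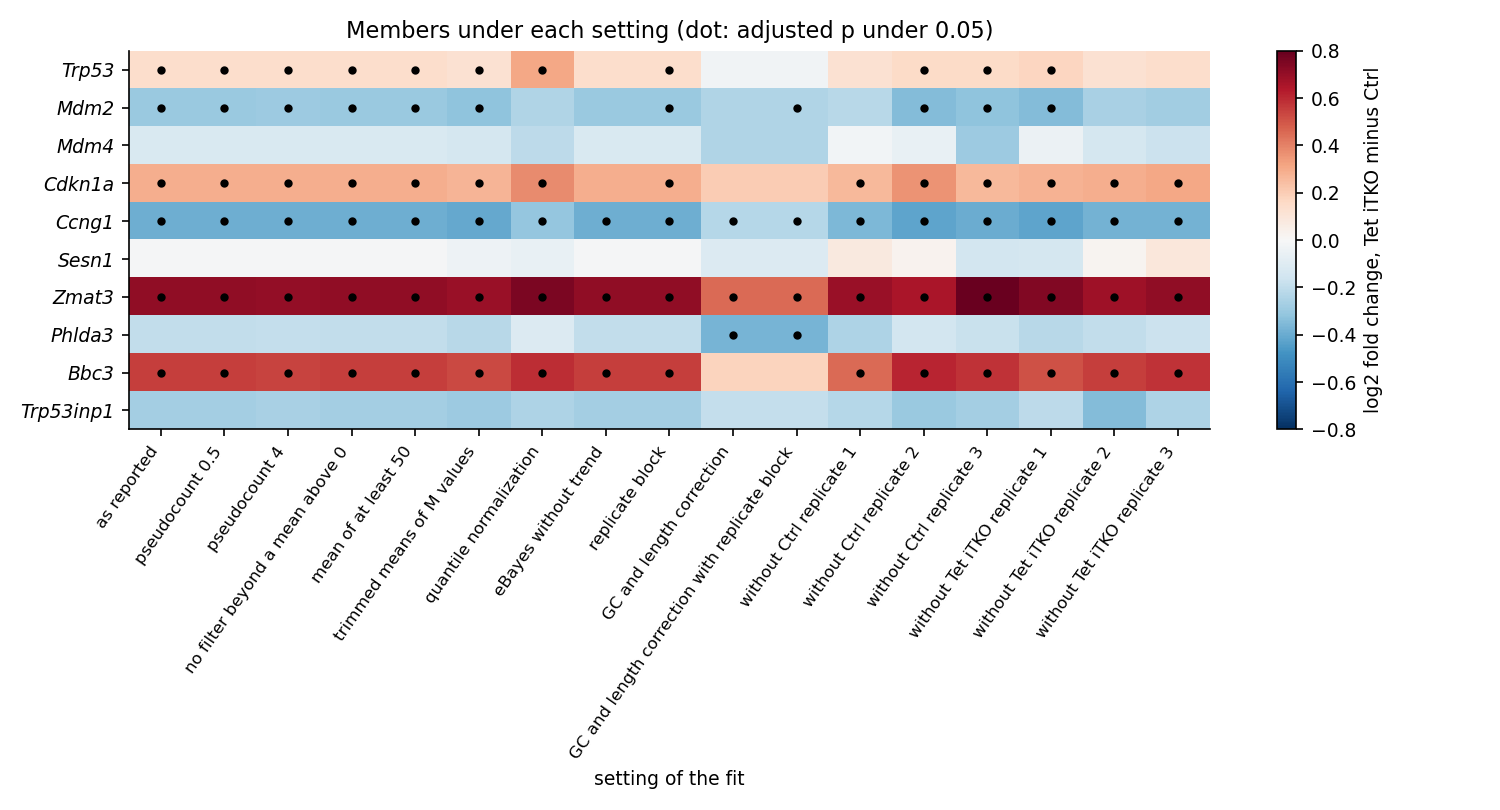
Log2 fold change of each member, Tet iTKO minus Ctrl (colour), under each setting of the fit (x axis), with a dot where the adjusted p was under 0.05. *Zmat3* and *Ccng1* carried a dot in all 17 columns, and *Mdm4*, *Sesn1* and *Trp53inp1* in none.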

How the data were processed

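RNA-seq libraries from 3 Ctrl and 3 Tet iTKO mESC lines were made with Smart-Seq2. The authors aligned reads with STAR, kept unique alignments, counted genes with HTSeq 0.7.1 and divided by DESeq2 1.26.0 size factors in R 3.5.2 (build mm9, per the submitters' processing notes; annotation not given in the sources used here). They rounded the scaled counts to whole numbers before deposit, and each deposited value is treated here as a score, with no count model. HTSeq was run in its stranded mode although the kit does not mark strand.

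Identifiers were matched to symbols with GENCODE M21 (20775 of 22380). Genes with a mean of at least 10 were tested as log2(value + 1) with limma 3.58.1 (empirical Bayes with an intensity trend, R 4.3.3), with Benjamini-Hochberg adjustment over 10524 genes. The code was tested on simulated data. Alternatives changed the pseudocount (0.5 or 4), the filter, the scaling, the trend, a replicate block, a loess correction for transcript GC content and length, or left out 1 line. The text names all members, the 3 largest called rises and falls of each list with a mean of at least 50, and genes that round out a role or marker list, which were chosen after their values were seen. The members and lists were chosen with earlier results of these data known. Replicate lines shared equal values in at most 2.1% of genes, so none was a copy. Same-numbered Ctrl and Tet iTKO lines did not deviate together (correlations of -0.005 to 0.001), so numbers were not treated as pairs.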

Additional observations from a re-analysis of the deposited data

How the results depend on the processing

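The counts and the members were recomputed under 16 alternatives, and the ratio of *Mdm2* to *Mdm4* under the 11 that could change it. *Zmat3* was called higher and *Ccng1* lower in all 16. *Cdkn1a* and *Bbc3* kept their direction in all 16, and *Mdm2* stayed lower. *Trp53* reversed to -0.03 in both fits with the GC and length correction. The log2 fold change of *Sesn1*, never called, ran from -0.15 to 0.09 when single lines were left out, turning to 0.08, 0.03, 0.02 and 0.09 without Ctrl line 1, Ctrl line 2, Tet iTKO line 2 and Tet iTKO line 3. With the GC and length correction 1 member was called higher, as were 3 regulators, 2 DREAM targets and 1018 of all genes against 2077 lower, so that 32.9% of calls were higher instead of 47.2%. Adding the replicate block to that correction gave 1, 3, 2 and 1041 higher. In that fit 3 members were lower, among them *Mdm2* (-0.24, limma adjusted p = 0.049), beside 2145 of all genes. The replicate block alone gave 4 members higher and 2 lower, 1762 of all genes higher and 1980 lower, and changed no member's call. Without the intensity trend 2 members were called higher and 1 lower (*Trp53*, *Cdkn1a* and *Mdm2* lost their calls), with 3 other targets higher, 3 regulators lower, 1 DREAM target higher, and 1075 of all genes higher and 1217 lower. Quantile normalization left 1 member (*Ccng1*) and 4 regulators lower, with 1795 of all genes higher and 1761 lower. Leaving out single lines gave 3 to 4 members higher and 1 to 2 lower, 2 to 4 DREAM targets higher, and 1321 to 1655 of all genes higher; *Mdm2* lost its call without Ctrl line 1, Tet iTKO line 2 or Tet iTKO line 3, and *Plk1* was among the DREAM targets lost without Tet iTKO line 3. The difference in the log2 ratio of *Mdm2* to *Mdm4*, Tet iTKO minus Ctrl, ran from -0.29 to -0.03 over the same fits. It was 0.00 with the GC and length correction. The cause of these shifts was not tested. With 3 lines a group and unknown depth, changes in low genes such as *Mdm4* were not detectable within about the width of their intervals.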
